A study of Mus musculus with 14 samples.

Results

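Cd274 and Pdcd1lg2 are the mouse genes of PD-L1 and PD-L2, the ligands of the inhibitory receptor PD-1. They were taken by name as 2 of the 9474 genes of each deposited table, and both genes had values in all 14 libraries. The libraries came from C57BL/6J mice and formed 4 groups. In culture, monocytes purified from bone marrow were kept for 7 days with the macrophage growth factor CSF1, either with 20 ng/mL murine IL4 (4 libraries, called culture IL4) or without it (4 libraries, culture control). CSF1 is given as 25 ng/mL in the growth protocol and as 20 ng/mL in the design text, and both culture groups received it. In the animals, acute myeloid leukemia (AML) cells were transplanted, and 12 days later cells with F4/80, a surface protein of macrophages, were sorted out of the bone marrow. The AML cells carried an IL4 cDNA (3 libraries, marrow IL4) or an empty vector (3 libraries, marrow control), so both marrow groups had leukemia. The promoter of the IL4 vector, the AML model and the sex and age of the mice were not stated in the labels used here. Whether each library had a culture or an animal of its own is not stated either, and p-values then describe only how these samples vary, which may be technical.

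PD-1 is a receptor on activated T cells, and its engagement by PD-L1 or PD-L2 dampens signalling from the T cell receptor. PD-L1 is found on many cell types and is known to be raised by interferon gamma. PD-L2 has a narrower distribution, mainly dendritic cells and macrophages, and is known as a target of IL4 through STAT6.

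The 2 genes are neighbours on the plus strand of mouse chromosome 19 (mm10, GENCODE M21). Cd274 (ENSMUSG00000016496.7) lies at chr19:29367455-29388095 and Pdcd1lg2 (ENSMUSG00000016498.10) at chr19:29410919-29471161, with 22823 bases between them. The letters upstream of both starts, from RefSeq on GRCm38.p6, are shown because the genes share a neighbourhood but not their immediate upstream sequence. For Cd274 the RefSeq start lies upstream of the GENCODE start given above. The first sequence is the part of the 250 bases before this RefSeq start that lies outside the next gene, Plgrkt, at chr19:29367391-29367437 (plus strand). The second is the whole window of 250 bases before the Pdcd1lg2 start, at chr19:29410669-29410918 (plus strand). Capitals mark a match to TTCNNNNGAA, the spacing of the palindrome that STAT6 is known to prefer.
Cd274 upstream: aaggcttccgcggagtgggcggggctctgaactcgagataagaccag
Pdcd1lg2 upstream: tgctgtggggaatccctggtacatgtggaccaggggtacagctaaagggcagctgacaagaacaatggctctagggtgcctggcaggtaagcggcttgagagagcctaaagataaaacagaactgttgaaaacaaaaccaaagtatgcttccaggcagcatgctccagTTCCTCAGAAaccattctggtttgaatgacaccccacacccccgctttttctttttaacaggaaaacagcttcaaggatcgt

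The capital letters lie 82 to 73 bases before the Pdcd1lg2 start (chr19:29410837-29410846), and the motif reads the same on both strands. Their first 6 letters also match, on the minus strand, GAGGAA, a core of sites for the myeloid factor PU.1. Over 32851 promoter windows of 250 bases, 5.85% held TTCNNNNGAA and 23.3% held GAGGAA on either strand. The Cd274 window of 250 bases held neither of them. Searched on both strands, GAAANNGAAA (a core of interferon response elements, in 2.98% of windows) and TATAAA (the TATA box, 12.4%) were in neither window. A match is a description of letters, and sites elsewhere in the genes were not searched.

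The deposited values are log2 values that whole numbers of reads underlie. Reads were recovered for 9225 genes, both ligand genes included, and they sum to 564161 to 851256 per library, so that 3 reads, the limit that a count of 0 allows, are worth 3.52 to 5.32 RPM (recovered reads scaled to a library total of 1000000). Library 4 stood apart in both culture groups, with a chi-square over degrees of freedom of 3.91 to 5.79 in every pair that holds it, against 1.55 to 2.76 in the other culture pairs of a group. The F4/80 gene, named Emr1 in the tables, had 745 to 912 reads in culture IL4 and 1511 to 2415 in culture control libraries, and 37 to 126 reads in marrow IL4 and 28 to 65 in marrow control libraries. Markers of neutrophils were high in marrow. S100a9 had 12728 to 18320 reads in marrow IL4 and 17586 to 19948 in marrow control libraries. The 5 measured neutrophil markers of 12 summed to 42346 to 53151 RPM in marrow IL4 and 58870 to 67041 in marrow control libraries, against 58.8 to 129 in culture IL4 and 107 to 214 in culture control libraries. The 12 macrophage markers summed to 2189 to 2404 RPM in marrow IL4 and 2497 to 2773 in marrow control libraries (11 with recovered reads). In culture they summed to 7543 to 8051 RPM with IL4 and 10067 to 10878 in controls. Of the marrow sums, Itgam alone had 711 to 1163 reads with IL4 and 1012 to 1231 in controls. The markers went both ways in marrow at a limma adjusted p below 0.05: Mertk, Cd163, Siglec1 and Vcam1 were higher, and Fcgr1, Csf1r and Cd68 lower (Cd68 not after centring). The part of the neutrophil and macrophage marker differences in the marrow results was not tested.

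PD-L1 transcripts were higher with IL4 in culture. Cd274 had 317, 296, 264 and 152 reads in culture IL4 libraries 1 to 4, against 37, 19, 29 and 62 reads in culture control libraries 1 to 4. The groups did not overlap, and the nearest libraries were IL4 library 4 and control library 4. The log2 values averaged 6.99 ± 0.36 in culture IL4 and 4.20 ± 0.63 in culture control libraries (SD, n = 4 each). The log2 fold change was 2.78 ± 0.30 (SE; 95% interval 2.13 to 3.44), a 6.88-fold higher level (limma adjusted p = 9.48e-05). Without library 4 of both culture groups it was 3.25 ± 0.17. In bulk samples, more cells of a type that carries a transcript and more transcript per cell cannot be told apart.

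PD-L2 transcripts were at 0 or 1 reads in culture control libraries and higher with IL4. Pdcd1lg2 had 153, 174, 135 and 103 reads in culture IL4 libraries 1 to 4, against 1, 0, 0 and 0 reads in culture control libraries 1 to 4. A count of 0 allows levels of up to 4.52 to 5.10 RPM in control libraries 2 to 4, while the IL4 libraries held 164 to 224 RPM. Summed over libraries, the share of reads was 537 times higher with IL4 (exact conditional 95% interval 95.9 to 21237, for counting error only). The fitted log2 fold change was 7.64 ± 0.28 (limma adjusted p = 6.65e-08), and 5.91 when 2 reads in place of 0.5 were added before the log, since it depends on the added reads at such low counts. It was 7.60 ± 0.31 without library 4 of both culture groups. By log2 fold change, Pdcd1lg2 stood at rank 7 and Cd274 at rank 88 of the 9474 genes.

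Both ligand genes were thus among the genes called higher, which were few in culture. At an adjusted p below 0.05, 40.5% of all genes passed in culture, 7.96% higher and 32.6% lower with IL4, and 7.49% of all genes had every IL4 library above every control library. The median log2 fold change of all genes was -0.36, and fold changes here are read against that shift. With each library centred on its median, 1365 of 2570 called genes were higher, against 754 of 3838 without centring, and the log2 fold change of Cd274 became 3.14, with that of Pdcd1lg2 moved up by the same amount.

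**Figure D1:**
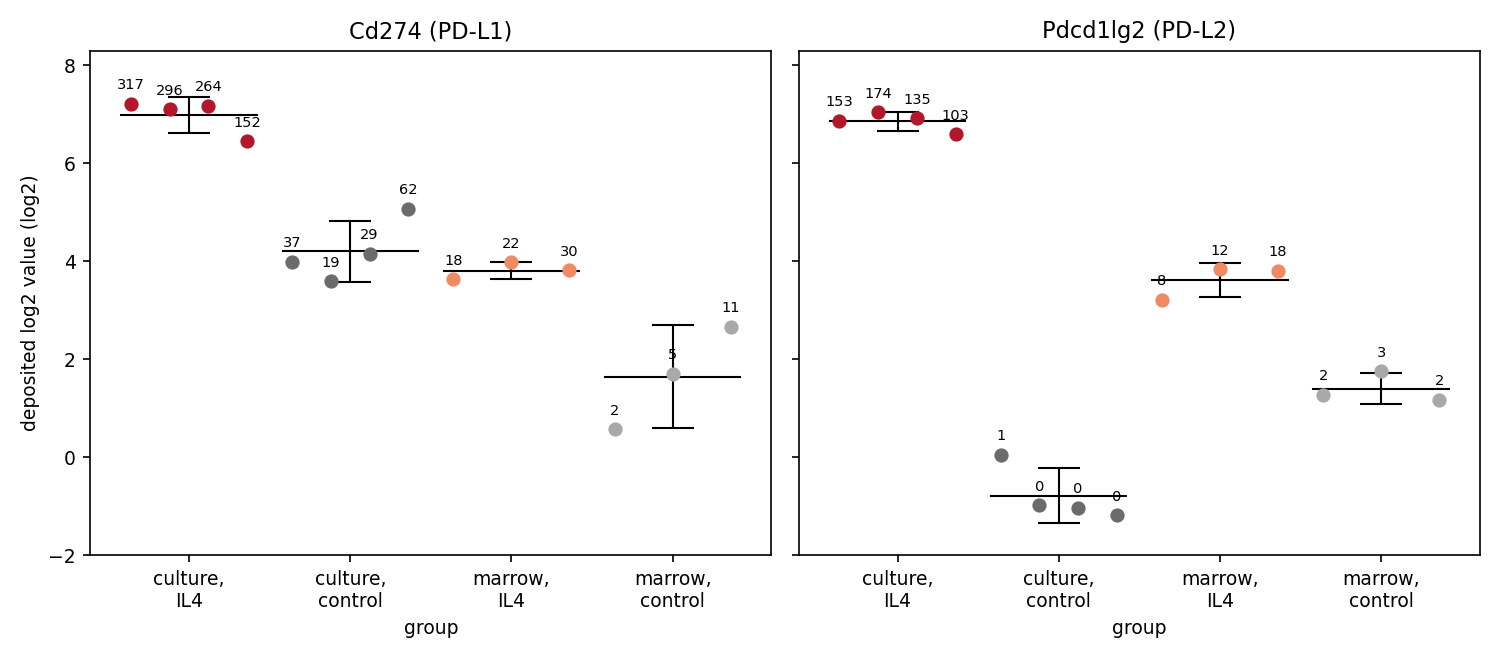
Deposited log2 value (y axis) of Cd274 and Pdcd1lg2 in each library of the 4 groups (x axis). Points are libraries, in replicate order, with their recovered reads as numbers, and bars are the group mean and SD. Pdcd1lg2 has 0 or 1 reads in culture control libraries and 103 to 174 in culture IL4 libraries.

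In marrow, both transcripts were higher in cells from mice with IL4-expressing AML, at few reads. Cd274 had 18, 22 and 30 reads in marrow IL4 libraries 1 to 3, against 2, 5 and 11 in marrow control libraries 1 to 3. Every marrow IL4 library lay above every marrow control library, and the controls spread more widely, with log2 values of 3.81 ± 0.18 in marrow IL4 and 1.65 ± 1.05 in marrow control libraries (SD, n = 3 each). The log2 fold change was 2.16 ± 0.47 (95% interval 1.10 to 3.23), a 4.48-fold higher level (limma adjusted p = 0.0131), and the ratio of summed reads was 3.89 (exact interval 2.29 to 6.93). Without marrow control library 1 the log2 fold change was 1.63, and without marrow control library 3 it was 2.68. The adjusted p was 0.00547 to 0.0452 when a library was left out.

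Pdcd1lg2 had 8, 12 and 18 reads in marrow IL4 libraries 1 to 3, against 2, 3 and 2 in marrow control libraries 1 to 3. These control counts are at or under 3 reads, the limit set for a count of 0, though none was 0. The log2 values were 3.62 ± 0.35 in marrow IL4 and 1.40 ± 0.31 in marrow control libraries, a log2 fold change of 2.22 ± 0.31 (95% interval 1.51 to 2.93), or 4.66-fold (limma adjusted p = 0.00164). The ratio of summed reads was 5.43 (exact interval 2.39 to 14.4). In marrow 18.2% of all genes passed, 6.7% higher and 11.5% lower (635 higher of 1721 called, and 895 of 1740 after centring), and 15.5% of all genes had every IL4 library above every control library, so the absence of overlap says less here than in culture. Cd274 and Pdcd1lg2 stood at ranks 96 and 90 by log2 fold change. Genes called higher in both experiments made up 1.75% of the 9474 genes, and both ligand genes were among these 166.

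**Figure D2:**
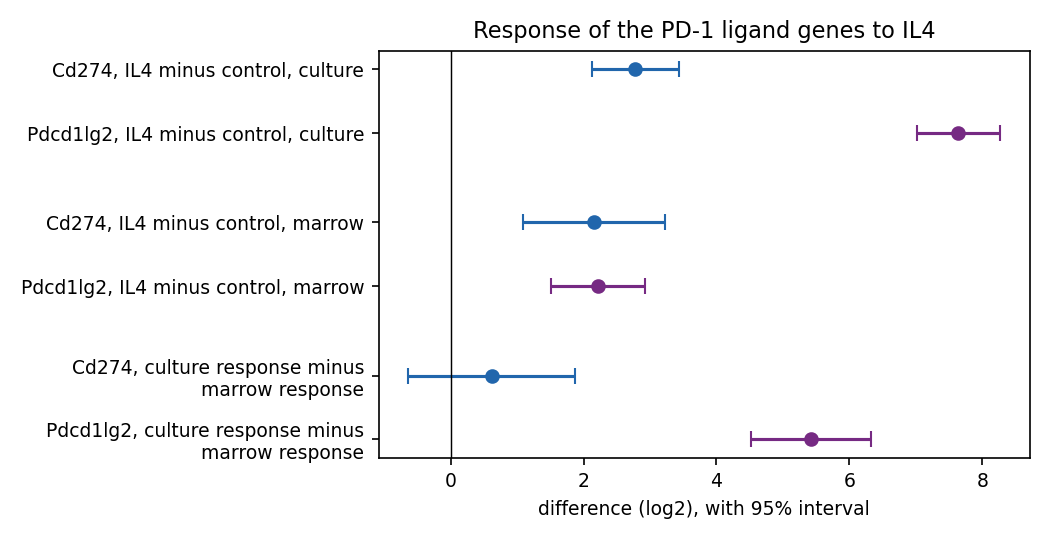
Differences on the log2 scale (x axis) of Cd274 and Pdcd1lg2, with 95% intervals from limma, for IL4 minus control in each experiment and for the culture response minus the marrow response (y axis). In marrow the responses are 2.16 and 2.22, and in culture they are 2.78 and 7.64.

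The response of Pdcd1lg2 was larger in culture than in marrow, and for Cd274 no difference of responses was called. For Pdcd1lg2 the culture response minus the marrow response was 5.42 ± 0.42 (95% interval 4.52 to 6.33, limma over all 14 libraries, adjusted p = 2.44e-06), where 23.1% of all genes were called for such a difference and 6.45% with a larger culture value (611 of 2186 called, and 889 of 1789 after centring). For Cd274 it was 0.62 ± 0.58 (95% interval -0.63 to 1.87, adjusted p = 0.481), an interval that holds both no difference and a response larger in culture by 1.87. Without library 4 of both culture groups it was 1.09 ± 0.55 (adjusted p = 0.158) for Cd274 and 5.38 ± 0.45 for Pdcd1lg2. The experiments differ in the source of the cells, their makeup, the form of IL4 and its duration, which cannot be told apart.

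The order of levels could be set only in part. Cd274 averaged 357 ± 77.9 RPM in culture IL4, 54.4 ± 26.9 in culture control, 35.1 ± 4.02 in marrow IL4 and 8.88 ± 6.43 in marrow control libraries (SD). Its culture control libraries, at 32.3 to 93.4, and its marrow IL4 libraries, at 31.0 to 39.0 RPM, overlapped, so these neighbours in the order do not differ beyond their spread. Pdcd1lg2 averaged 197 ± 25.2 RPM in culture IL4, 18.8 ± 4.33 in marrow IL4 and 3.54 ± 0.974 in marrow control libraries, and was at 1.17, 0, 0 and 0 in culture control libraries. The Pdcd1lg2 values of marrow control libraries, at 2.87 to 4.65 RPM, lie at or under the 4.52 to 5.10 RPM that a count of 0 allows in culture control libraries 2 to 4, so the order of these control groups is not set. The tables were made separately, and the constants that turn reads into log2 values differ between them by about 0.1 (0.064 to 0.121 above the value expected from the total in marrow, -0.024 to 0.002 in culture).

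Per length of exons, the transcripts of both ligands were about level wherever IL4 was present. RPM per kilobase (exon lengths of 1961 bases for Pdcd1lg2 and 3622 for Cd274) averaged 101 ± 12.8 for Pdcd1lg2 and 98.7 ± 21.5 for Cd274 in culture IL4 libraries, and 9.57 ± 2.21 and 9.70 ± 1.11 for the same genes in marrow IL4 libraries (SD). The ratio of Pdcd1lg2 to Cd274 reads per kilobase was 0.891, 1.09, 0.944 and 1.25 in culture IL4 libraries 1 to 4, and 0.0499, 0, 0 and 0 in culture control libraries 1 to 4. It was 0.821, 1.01 and 1.11 in marrow IL4 libraries 1 to 3, against 1.85, 1.11 and 0.336 in marrow control libraries 1 to 3. The ratio thus lay between 0.821 and 1.25 in the 7 IL4 libraries, at or near 0 in the 4 culture controls, and on both sides of 1 in the 3 marrow controls, which hold 2 to 11 reads of Cd274 and 2 to 3 of Pdcd1lg2.

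Within a library, the log2 value of Pdcd1lg2 minus that of Cd274 was -0.13 ± 0.22 in culture IL4 and -4.99 ± 0.99 in culture control libraries (SD, n = 4 each). The groups differed by 4.86 (exact permutation test, two-sided p = 0.0286, the smallest that 4 against 4 allow). The value was 3.18 when 2 reads in place of 0.5 were added before the log, and 4.34 without library 4 of both groups (exact permutation p = 0.1, the smallest that 3 against 3 allow). In marrow it was -0.19 ± 0.20 with IL4 and -0.24 ± 1.13 in controls, a difference of 0.05 (exact permutation p = 1, where 3 against 3 cannot go below 0.1). These differences come from the deposited log2 values, whose constant per gene does not cancel between genes, so they compare groups and are no ratio of transcripts. After each group mean was taken off, the 14 values of the 2 genes had a Pearson r of -0.08 and a Spearman rho of 0.04, given as a description over libraries with few reads. After the table means alone were taken off, r was 0.861 and rho 0.815, which includes the group differences.

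**Figure D3:**
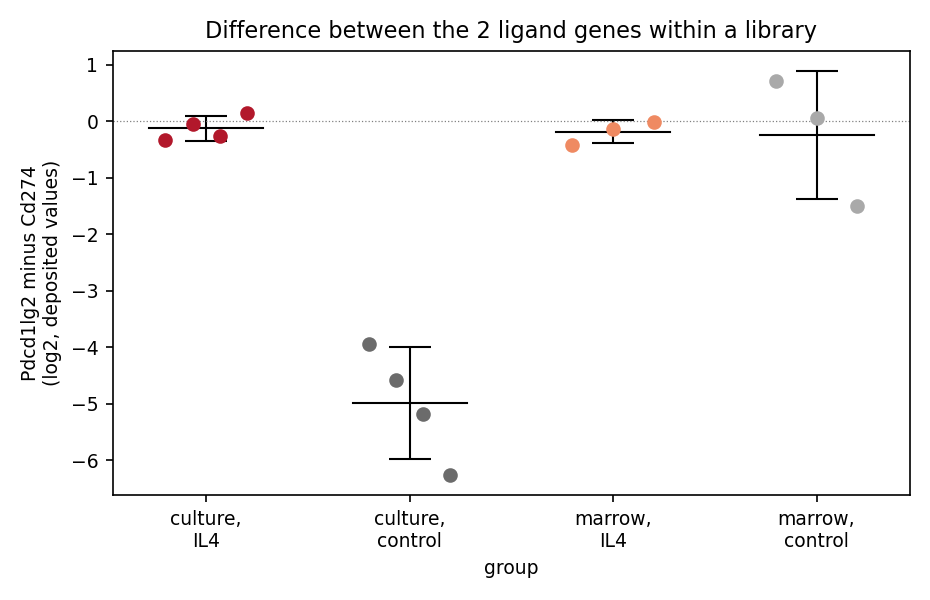
Log2 value of Pdcd1lg2 minus that of Cd274 in the same library (y axis), by group (x axis), with points for libraries and bars for the mean and SD. Culture control libraries lie at -6.26 to -3.94, and culture IL4 libraries at -0.34 to 0.15.

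The authors' deposited table for culture gives Cd274 a fold change of 1.67 (p = 0.000537, q = 0.0073), where the difference of the group means of its log2 values corresponds to 6.88-fold. The deposited value was matched when a second log2 was taken of the log2 values before averaging, as it was within 1% for 99.97% of the 8685 genes above 0 in every culture library. For Pdcd1lg2, which has values below 0 there, the authors' deposited table gives 448-fold in culture (p = 7.09e-06, q = 0.000672), where the plain difference corresponds to 200-fold. In marrow the authors' deposited table gives 4.48-fold for Cd274 (p = 0.0245, q = 0.125) and 4.66-fold for Pdcd1lg2 (p = 0.0012, q = 0.0344), the same folds as the plain differences of log2 values. By the authors' deposited q-values at 0.05, Cd274 in marrow would not pass.

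Jak2 was called among the neighbours of the ligand genes. Of the 8 nearest measured genes, 4 on each side of the pair, 1 was called higher and 0 lower in culture, and likewise in marrow. This is near the share of all genes called higher (7.96% in culture and 6.7% in marrow), so the count shows nothing particular to the locus. Jak2 encodes a kinase that carries signals from the interferon gamma receptor, and its start lies at -115.6 kb from the Cd274 start. Jak2 had 64 to 128 reads in culture IL4 and 26 to 50 in culture control libraries, with a log2 fold change of 1.42 ± 0.17 (limma adjusted p = 0.00019). In marrow it had 141 to 234 reads with IL4 and 97 to 117 in controls, with a log2 fold change of 0.76 ± 0.14 (limma adjusted p = 0.00537). Plgrkt, the gene of a plasminogen receptor, lies on the minus strand with 64 bases between its GENCODE start and that of Cd274. Of the Cd274 window, which ends before the RefSeq start further upstream, 203 bases fall inside Plgrkt. It was not called, at log2 fold changes of 0.17 ± 0.19 in culture and 0.09 ± 0.28 in marrow (limma adjusted p = 0.511 and 0.855), with 11 to 43 reads in any library. Whether strand was used in counting is not stated, and without it reads near both starts could not be told apart. The others were Ak3, Rcl1, Ermp1, 9930021J03Rik, Ranbp6 and Uhrf2, between -0.39 and 0.34 in culture and between -0.26 and 0.54 in marrow, of which none passed (the culture direction of Ak3, 9930021J03Rik, Ranbp6 and Uhrf2 flips after centring).

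**Figure D4:**
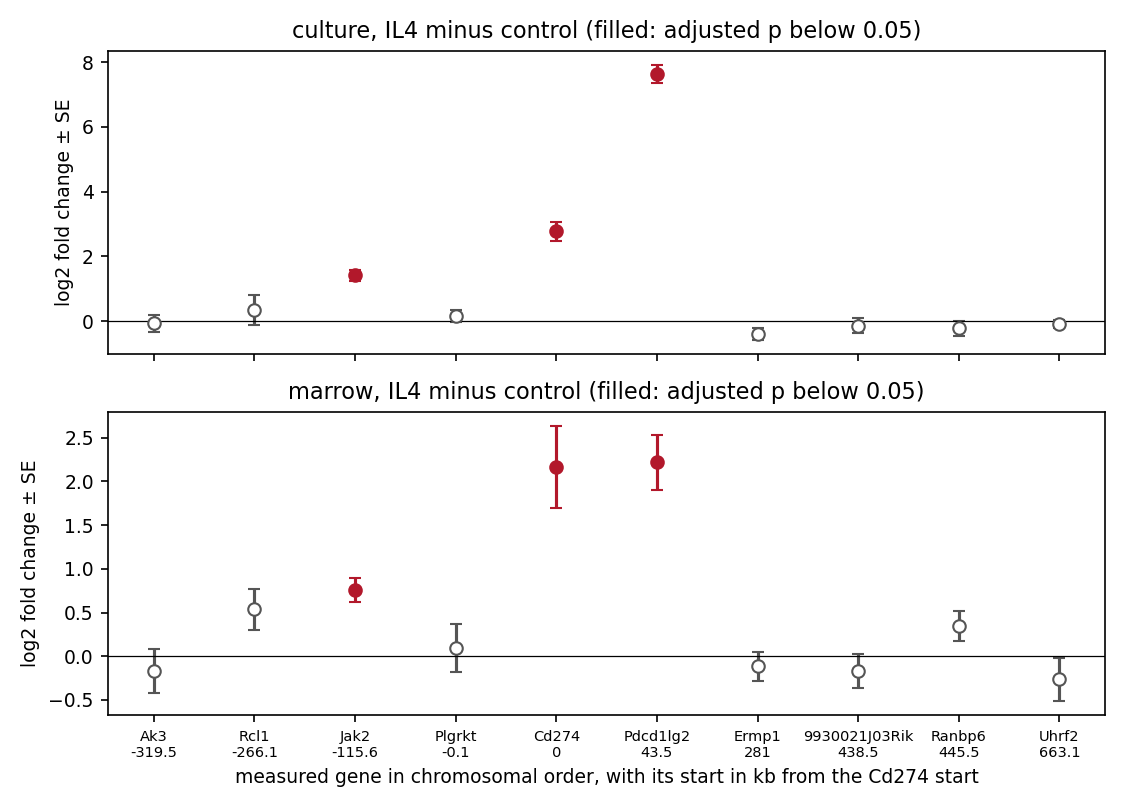
Log2 fold change, IL4 minus control, with its SE (y axis) of Cd274, Pdcd1lg2 and the 4 nearest measured genes on each side, in chromosomal order (x axis), in culture (top) and marrow (bottom). Filled points passed at an adjusted p below 0.05. Jak2, Cd274 and Pdcd1lg2 are filled in both panels.

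Genes whose pattern over the 14 libraries was most like that of each ligand were not the same. With the table mean of a gene taken off and over 8241 genes averaging at least 10 reads in either table, Cd274 was nearest to Hist1h2bc (Pearson r 0.973), the arginine transporter gene Slc7a2 (0.962), Rassf8 (0.954), the interleukin 36 receptor gene Il1rl2 (0.951) and the DNA methyltransferase gene Dnmt3a (0.947). Pdcd1lg2 was nearest to the integrin gene Itgb3 (0.992), the chitinase-like gene Chil3 (0.987), Tuba8 (0.980), the transcription factor gene Nfil3 (0.975) and the chloride channel family gene Clic4 (0.971). Pdcd1lg2 stood at rank 89 for Cd274 and Cd274 at rank 150 for Pdcd1lg2 among the 8241 genes (r = 0.861). Of the 5 genes nearest to Cd274, Rassf8 was not called in marrow (1.47 ± 0.62, limma adjusted p = 0.135; 2.25 and called without marrow control library 3, adjusted p = 0.0132), and the other 4 were called higher in both experiments. All 5 genes nearest to Pdcd1lg2 were called higher in both. The likeness was measured over libraries of all groups, so the choice of these genes fixes how they differ between groups, and their calls are a description. Nfil3 lost its marrow call without marrow IL4 library 3 (1.19, adjusted p = 0.0562) and without marrow control library 3 (1.35, adjusted p = 0.0568).

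Among relatives of the ligands, Icosl and Rgmb were lower in culture. Of 15 genes of B7 ligands and their receptors, 6 were measured, and 0 were called higher in either experiment. In culture 2 were lower, near the share of 32.6% of all genes, and 0 higher is near the shares of 7.96% in culture and 6.7% in marrow. These main counts are near the background. With 2 reads added before the log, 5 were lower in culture, so the count of lower genes depends on the setting. In marrow 0 were lower. The median log2 fold change was -1.22 in culture, against -0.36 for all genes, and -0.32 in marrow, against -0.06. Icosl, the ligand of the costimulatory receptor ICOS, had 0 to 1 reads in culture IL4 and 7 to 30 in culture control libraries, a share of reads 0.0120 times that of controls (exact interval 0.000301 to 0.0690; limma adjusted p = 0.000138). In marrow it had 35 to 54 reads with IL4 and 23 to 40 in controls (log2 fold change 0.53 ± 0.27, limma adjusted p = 0.214). Rgmb, whose protein binds PD-L2, was lower in culture (-1.18 ± 0.37, limma adjusted p = 0.0276). That call was lost after centring (adjusted p = 0.134), without culture control library 2 (0.0775) or 4 (0.0517) and without library 4 of both culture groups (0.0625), while 4 genes were lower without culture IL4 library 4 and 1 without culture control library 2. Cd80, a second partner of PD-L1, and Pdcd1, the gene of PD-1, were among the listed genes that were not measured. Of 8 TNF family costimulators 2 were measured, and neither passed.

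Of 9 genes known, largely from human cells, for keeping or removing PD-L1 protein, 8 were measured. In culture 0 were higher and 3 lower, where 32.6% of all genes were lower, and after centring 1 was higher and 0 lower. The gene called higher after centring was Spop, a ubiquitin ligase adaptor (0.55, adjusted p = 0.0152; 0.19 and not called without centring). The 3 lower genes kept their sign after centring and lost their calls. They were Cops5, a deubiquitinating subunit of the COP9 signalosome, and Cmtm6 and Cmtm4, whose proteins stabilise PD-L1 at the cell surface, with log2 fold changes of -0.74 ± 0.16 and -0.54 ± 0.14 (limma adjusted p = 0.00494 and 0.0129; -0.38 and -0.17 after centring). In marrow 1 was lower, near the share of 11.5% of all genes, and 2 without marrow IL4 library 3. That gene was Btrc, which encodes a subunit of a ubiquitin ligase, with 5 to 9 reads in marrow IL4 and 28 to 43 in marrow control libraries (-2.21 ± 0.24, limma adjusted p = 0.000455), against -0.14 ± 0.25 in culture, where it was not called.

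Genes of interferon responses other than Jak2 are given here by 2 examples, Nlrc5 and Ifngr1, each called in 1 experiment. Nlrc5, a regulator of MHC class I genes, was lower in culture, with 2 to 6 reads in culture IL4 and 16 to 58 in culture control libraries (-2.67 ± 0.34, limma adjusted p = 0.000261). In marrow Nlrc5 had 41 to 51 reads with IL4 and 39 to 55 in controls and was not called. Ifngr1, which encodes a chain of the interferon gamma receptor, was higher in marrow, with 288 to 637 reads in marrow IL4 and 142 to 169 in marrow control libraries (1.31 ± 0.17, limma adjusted p = 0.00112). In culture Ifngr1 had 160 to 242 reads with IL4 and 178 to 293 in controls and was not called (-0.32 ± 0.12, limma adjusted p = 0.0539; the direction flips after centring).

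Of 7 genes of NF-kappaB, its kinase and its inhibitor, 0 were higher and 5 lower in culture (Nfkb1, Nfkb2, Relb, Nfkbia and Ikbkb), where 32.6% of all genes were lower, and 1 was lower after centring. Without culture IL4 library 1, culture control library 2 or culture control library 3, or without library 4 of both groups, 3 were lower. The culture calls with the smallest p were Nfkb2 (-0.59 ± 0.12, limma adjusted p = 0.00404; 0.159 after centring) and the inhibitor gene Nfkbia (-1.34 ± 0.30, limma adjusted p = 0.00592; 0.0333 after centring). In marrow 0 were higher and 3 lower, 2 after centring and 1 without marrow control library 2, where 6.7% of all genes were higher and 11.5% lower. Relb had 2 to 5 reads in marrow IL4 and 10 to 12 in marrow control libraries (-1.76 ± 0.24, limma adjusted p = 0.00145), and the kinase gene Ikbkb fell by 0.79 ± 0.18 (limma adjusted p = 0.0152; 0.0622 without marrow control library 2).

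On the IL4 side, 11 genes of receptor signalling were measured. In culture 2 were higher and 4 lower, or 2 and 2 after centring, where 7.96% of all genes were higher and 32.6% lower. The count of lower genes in culture is thus near the background. The culture genes were Cish and the feedback inhibitor gene Socs1 (higher), and Il4ra, the common gamma chain gene Il2rg, the kinase gene Tyk2 and Ptpn6 (lower). In marrow Cish, Il4ra and the kinase gene Jak3 were higher and Tyk2 was lower, the last neither after centring nor when any of the 6 libraries was left out. Of all genes in marrow, 6.7% were higher and 11.5% lower. Cish, which encodes another inhibitor of cytokine signalling, was higher in both, by 5.26 ± 0.47 in culture and 3.64 ± 0.24 in marrow (limma adjusted p = 3.50e-05 and 4.59e-05). Il4ra, the receptor chain that binds IL4, went opposite ways. It had 47 to 63 reads in culture IL4 and 93 to 155 in culture control libraries (-1.13 ± 0.14, limma adjusted p = 0.000211), and 84 to 174 reads in marrow IL4 and 52 to 62 in marrow control libraries (1.07 ± 0.18, limma adjusted p = 0.00344). Ptpn6, a phosphatase gene, was lower in culture (-1.56 ± 0.12, limma adjusted p = 1.77e-05) and not called in marrow (0.10 ± 0.12).

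Of 26 genes of IL4-driven alternative activation, a list chosen for what IL4 is known to raise, 21 were measured. In culture 20 were higher and 0 lower (median log2 fold change 3.09), and in marrow 12 were higher and 3 lower, or 14 and 3 after centring (median 1.77). Of all genes, 7.96% were higher and 32.6% lower in culture, and 6.7% were higher and 11.5% lower in marrow. The 3 listed genes lower in marrow were the fibronectin gene Fn1 and the transcription factor genes Klf4 and Irf4, which were called higher in culture. Cd274 lay below these medians in culture at 2.78 and above in marrow at 2.16, and Pdcd1lg2 lay above in both at 7.64 and 2.22. Retnla and Mgl2, a secreted protein and a lectin of such macrophages, had 0 reads in the culture control libraries and were at least 8473-fold and 605-fold higher in culture IL4 (against 3 reads over the group). In marrow Retnla was at least 1663-fold higher on the same basis, and Chil3 rose by 2.95 ± 0.14 (limma adjusted p = 7.09e-06).

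A list of 17 genes held other ligands and enzymes that inhibit T cells, and also the receptor genes Cd200r1 and Havcr2. Of these 17 genes, 12 were measured. In culture 4 were higher (Arg1, Cd200r1, the galectin-3 gene Lgals3 and the poliovirus receptor gene Pvr) and 4 lower (Spp1, the galectin-9 gene Lgals9, the TIM-3 gene Havcr2 and the CD39 gene Entpd1), or 4 and 3 after centring (median -0.26). All genes gave 7.96% higher and 32.6% lower, so the count of lower genes is near the background. In marrow 5 were higher (Arg1, Cd200r1, Spp1, Havcr2 and Pvrl2) and Lgals9 was lower, or 6 and 0 after centring (median 0.57), where 6.7% of all genes were higher and 11.5% lower. No gene was lower in marrow when a library other than marrow control library 2 was left out. Arg1, the arginase gene, had 1714 to 8497 reads in culture IL4 and 0 to 1 in culture control libraries, and 94 to 486 in marrow IL4 and 0 to 2 in marrow control libraries, ratios of 23833 (exact interval 4277 to 941372) and 250 (exact interval 85.0 to 1213; limma adjusted p = 0.000217). Cd200r1, an inhibitory receptor gene of myeloid cells, was higher in marrow (1.60 ± 0.15, limma adjusted p = 0.000217) and in culture (0.55 ± 0.14, limma adjusted p = 0.0118). Spp1, the osteopontin gene, was lower in culture at 176 to 367 reads with IL4 and 631 to 1227 in controls (-1.72 ± 0.17, limma adjusted p = 7.41e-05), and higher in marrow at 27 to 46 reads with IL4 and 4 to 11 in controls (2.59 ± 0.40, limma adjusted p = 0.00246).

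**Figure D5:**
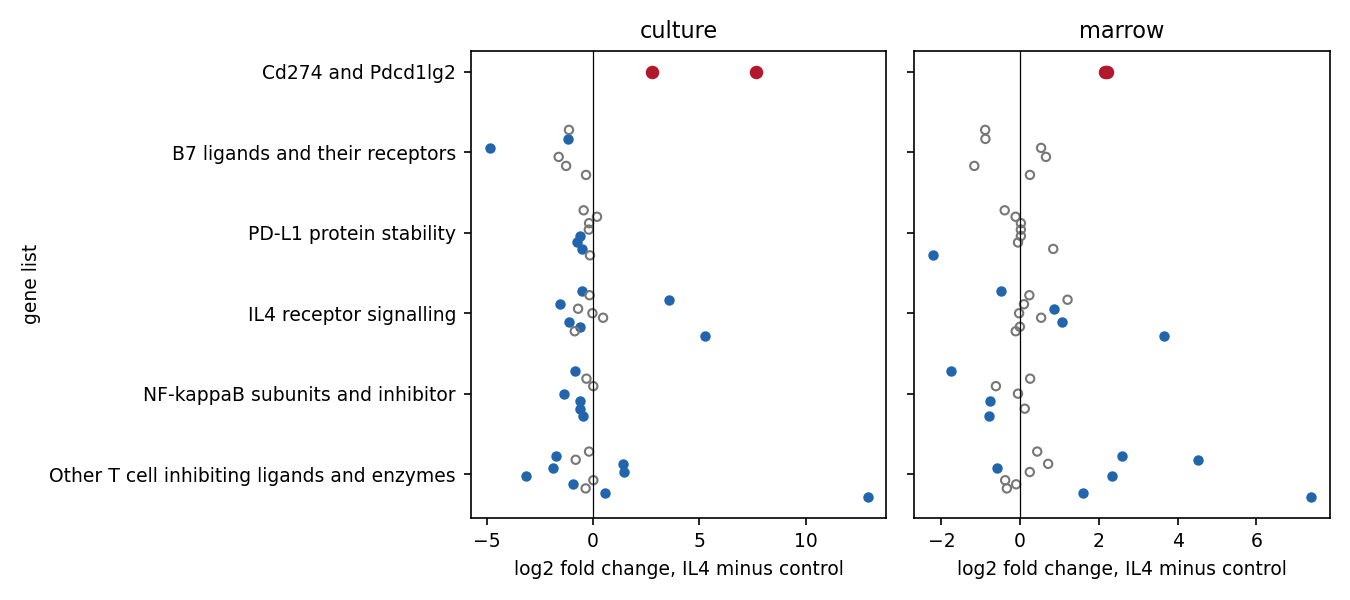
Log2 fold change, IL4 minus control (x axis), of Cd274 and Pdcd1lg2 (red) and of the measured genes of 5 lists (y axis), in culture and marrow. Filled blue points passed at an adjusted p below 0.05, open points did not. In culture both ligand genes lie to the right of all B7 relatives, which sit between -4.86 and -0.33.

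Markers of other cells that can carry the ligands also differed between groups. Of 16 dendritic cell markers 5 were measured, and they summed to 3657 to 4454 RPM in culture IL4 and 340 to 996 in culture control libraries, led by Itgax and by Mgl2, which also belongs to the alternative activation list and was at 0 in the culture controls. In marrow they summed to 348 to 574 with IL4 and 366 to 486 in controls. These markers also went both ways. In culture Mgl2, Itgax and Irf4 (3.32) were called higher. Irf8 and Bst2 were called lower there, Irf8 not after centring (limma adjusted p = 0.124). In marrow Mgl2 was called higher (5.87) while Irf8 (-2.19) and Irf4 (-1.54) were lower. Of 9 monocyte markers 6 were measured, and they summed to 28708 to 39551 RPM in culture IL4 and 806 to 1473 in culture control libraries, and to 27736 to 29084 in marrow IL4 and 7926 to 9750 in marrow control libraries. Chil3, also on the alternative activation list, made up most of these sums in both IL4 groups. It had 15897 to 27682 reads in culture IL4 and 2 to 6 in culture control libraries. In marrow it had 15723 to 24205 reads with IL4 and 2205 to 2739 in controls. The markers went both ways: Chil3 was higher in both experiments and Fn1 in culture. Cx3cr1, Ccr2 and F13a1 were lower in both, Vcan was lower in culture and Fn1 was lower in marrow. Cx3cr1 was at 0 in both IL4 groups, against 154 to 286 reads in culture control and 79 to 96 in marrow control libraries. B cell markers (3 of 9) summed to 241 to 305 RPM in culture IL4 and 158 to 217 in culture control libraries, and to 42.5 to 76.8 in marrow IL4 and 154 to 171 in marrow control libraries. In culture Cd22 (1.52) and Blnk (0.39, limma adjusted p = 0.0421) were called higher and Cd79b lower (-2.38), and in marrow all 3 were lower. Only 1 B cell marker was higher in culture without the variance trend, with a replicate block or in a fit over all 4 groups. The same held without culture IL4 library 2 or 3, or without culture control library 1, 2 or 3. T cell markers (2 of 13, Cd247 and Il7r) summed to 584 to 819 RPM in culture IL4 and 112 to 444 in culture control libraries, and to 15.4 to 37.2 in marrow IL4 and 67.8 to 77.6 in marrow control libraries. In culture Il7r was called higher (2.08) and Cd247 lower (-1.81), and in marrow Il7r was lower. Eosinophil and mast cell markers (5 of 11) summed to 625 to 2135 RPM in culture IL4 and 17.6 to 42.2 in culture control libraries, and to 527 to 656 in marrow IL4 and 176 to 225 in marrow control libraries. Ear2, which the alternative activation list also holds, had 471 to 1328 reads in culture IL4 and 0 to 2 in culture control libraries. Blast or progenitor markers (3 of 9) summed to 14.3 to 20.6 RPM in culture IL4 and 35.0 to 78.3 in culture control libraries, and to 214 to 245 in marrow IL4 and 118 to 140 in marrow control libraries. In marrow Gata2, also an eosinophil and mast cell marker here, was called higher (2.08) and Sox4 lower (-1.38). The part of all these markers in the ligand results was not tested.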

How the data were processed

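RNA sequencing values of 14 libraries were used. Per the labels' protocols, RNA came from QIAshredder and RNeasy Micro columns, and the kit was Illumina TruSeq RNA v2. The submitters' processing notes name TopHat2 2.0.13, bcl2fastq and mm10. The counting tool, use of strand, gene filter and normalization are not stated in these sources. The deposited library values are log2, as the values show: log2 of whole reads plus 0.5, with a constant per gene and per library. The authors deposited a fold change, p-value and q-value per gene beside them. Each table was read whole, and 0 columns of library values were left unused.

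Reads were recovered by solving for the constants (9225 of 9474 genes, 97.4%; largest residual 0.000725 log2 under 100 reads). Levels between genes used recovered reads per kilobase of GENCODE M21 exons, since the constant per gene did not follow exon length (Spearman rho -0.006 across 8840 genes). Main tests were two-sided, with limma 3.58.1 (R 4.3.3) on the deposited log2 values with a variance trend, IL4 against control within each table, and over all 14 libraries for the difference of responses; Benjamini-Hochberg adjustment ran over 9474 genes, with a threshold of 0.05. Single values used exact permutation tests (SciPy 1.17.1). Recovered reads are not counts as deposited, so count models were not the main test; voom on them was an alternative. Intervals of read ratios cover counting error only. Recovery and the limma fits were tested on simulated data. No pair of libraries in a group agreed within sampling noise (chi-square over its degrees of freedom was 1.50 to 5.79, with library 4 of both culture groups apart).

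The ligand genes and the 16 lists (184 genes) were chosen with earlier results of these data known; 1 of these lists is not reported here. Named genes were the ligand genes, at most 2 called genes per pathway list and experiment with the smallest p (the rule allowed 4), 4 measured neighbours on each side and the 5 genes most like each ligand; genes named only where a count of list members is spelt out, and markers, were named after their values were seen. Alternatives were other scalings, no variance trend, a replicate block, voom, 2 added reads, a filter at a mean of 10 reads, another grouping of the fit, leaving out each library and, chosen after seeing the data, leaving out library 4 of both culture groups.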

Additional observations from a re-analysis of the deposited data

Results flagged for a closer look

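Both ligand genes had 1 library that stood apart from the other 3 of its group, by the gap to the nearest library as a share of the group's range (above 0.829, Dixon's 95% critical value for 4 samples). Cd274 in culture IL4 library 4 had a log2 value of 6.45, against 7.11 to 7.21 in the others, and 152 reads against 264 to 317. Pdcd1lg2 in culture control library 1 had 0.055, which is 1 read against 0 in the others. Of 78 groups of 4 tested over the named genes 7 were flagged, and chance flags about 5% of groups. The others were Arg1 (7.67) and Retnla (12.41) in culture IL4 library 4, Il4ra (4.93) in culture IL4 library 3, and Clic4 (12.62) and Icosl (0.98) in culture control library 4, all as log2 values. Of the 7, 5 were replicate 4.

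The responses of the culture and marrow experiments differed (limma over 14 libraries, adjusted p below 0.05) for Pdcd1lg2 and 20 of the 37 other named genes, given as culture response minus marrow response on the log2 scale. Of all genes 23.1% were called for such a difference. Many of the named genes were chosen by their p in an experiment or by likeness to a ligand, so the count depends on that choice. Pdcd1lg2 stood at 5.42. Larger values in culture were found for Chil3 (9.63), Arg1 (5.51), Tuba8 (4.37), Mgl2 (3.93), Itgb3 (2.68), Il1rl2 (2.31), Nfil3 (2.20), Btrc (2.07), Retnla (1.98) and Clic4 (1.12). Values below 0 were found for Icosl (-5.39), Spp1 (-4.31), Nlrc5 (-2.68), Il4ra (-2.21), Ptpn6 (-1.66), Ifngr1 (-1.62), Cmtm4 (-1.38), Nfkbia (-1.29), Cd200r1 (-1.06) and Cmtm6 (-0.69). By voom the difference was not called for Arg1 (adjusted p = 0.235), Retnla (0.624) and Cmtm4 (0.0561), and after centring it was not called for Cmtm4 (0.0672), Cmtm6 (0.248) and Nfkbia (0.109).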

How the results depend on the processing

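The calls of Cd274 and Pdcd1lg2 in culture and marrow, and of Pdcd1lg2 for the difference of responses, held under every alternative run, and Cd274 was not called for the difference under any. Log2 fold changes were 2.58 to 3.25 (Cd274) and 5.91 to 8.17 (Pdcd1lg2) in culture, and 1.63 to 2.68 and 1.73 to 2.42 for the same genes in marrow. The difference of responses was 0.11 to 1.15 for Cd274 (adjusted p = 0.121 to 0.912) and 4.17 to 5.79 for Pdcd1lg2. With genes under a mean of 10 reads left out, Pdcd1lg2 in marrow was not in the fit. The main fit has no filter, so an unfiltered alternative was not run. Genes called numbered 2570 to 4109 in culture, 1307 to 2288 in marrow and 1775 to 3005 for the difference, against 3838, 1721 and 2186 in the main comparisons. With a library left out they numbered 2995 to 4004, 1104 to 1460 and 1792 to 2589 in the same order, with 1147 in marrow without marrow control library 2 and 1104 without marrow control library 3.

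Replicate numbers gave no pairing (correlations of same-numbered deviations -0.045 to 0.022 in culture and 0.026 to 0.059 in marrow). With a replicate block 3447, 1764 and 1925 genes passed in culture, in marrow and for the difference, and the ligand calls held. For Pdcd1lg2 minus Cd274 in culture the block gave 4.86 (exact sign-flip p = 0.125, the smallest possible), and leaving out a library gave 4.44 to 5.21 (exact p = 0.0571, the smallest possible). It was 3.18 with 2 reads added. Leaving out library 4 of both culture groups, chosen after seeing the data, gave 4.34 (exact p = 0.1, the smallest possible), and the ligand calls held. In marrow this value was -0.090 with 2 reads added and -0.57 to 0.53 with a library left out; the cause was not tested.

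Of 94 results of other named genes, those not called whose sign changed were, in culture after centring and after quantile normalization, 9930021J03Rik (0.22, 0.19), Ak3 (0.29, 0.36), Btrc (0.22, 0.29), Ranbp6 (0.14, 0.18) and Uhrf2 (0.28, 0.26), and Ifngr1 after centring (0.046); without library 4 of both groups 9930021J03Rik was 0.035 and Btrc 0.031. In marrow they were Cmtm6 (0.052) and Nfkbia (0.052) after centring, Nfkbia (0.028) after quantile normalization, and Nlrc5 by voom (-0.077) and with 2 reads added (-0.018). With a library left out the ranges were 9930021J03Rik -0.30 to 0.0012, Ak3 -0.29 to 0.17, Btrc -0.30 to 0.037, Rcl1 -0.024 to 0.66 in culture and Cmtm6 -0.13 to 0.041, Nfkbia -0.20 to 0.21, Nlrc5 -0.17 to 0.28, Plgrkt -0.074 to 0.33 in marrow. Counts of called list members moved by over 1.5 times in 102 cases; B7 relatives lower in culture, for example, were 5 with 2 reads added, against 2. Libraries are shallow, so levels of a few reads are known only within wide counting error.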
